A study of Mus musculus with 2 samples.

Results

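Subunits and inhibitors of the transcription factor NF-kB, with a few of its well-known target genes, were compared between the arrays of 2 mouse epithelial cell lines. The genes were chosen by name: Nfkb1, Nfkb2, Rela, Relb, Nfkbia, Tnfaip3, Birc3, Vcam1, Icam1 and Ptgs2. Of these 10, Nfkb1 had no probe set annotated to it alone and is not analysed here. The other 9 had 19 probe sets, of 34945 probe sets on the array that name a single gene, and all 9 were among the 14827 of 18193 genes called measured. The lines are named Mlesico and Mle29c in the labels, which give no treatment for either and state the same serum-containing DMEM medium for both. The title of the series concerns miR-29c, a microRNA, in lung fibrosis, but the labels do not state how Mle29c was made, in which direction miR-29c differs in it, or whether either line is a single clone.

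NF-kB is a family of dimeric transcription factors that rest in the cytoplasm bound to IkB proteins. Cytokines, Toll-like receptor ligands and stress activate the IkB kinase complex, the IkB protein is degraded, and the dimer enters the nucleus and binds short G-rich and C-rich kappaB sites. Its targets include its own inhibitors, which end the response, and genes of adhesion, prostaglandin synthesis and chemokines, and in lung epithelium the pathway is known for its part in inflammation.

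Each line was measured on 1 array, so no difference below has a replicate check, none carries a p-value, and the number of arrays limits the precision. Each value is a log2 ratio, the Mle29c value minus the Mlesico value of a probe set, and a gene's value is the median over its measured probe sets. The deposited values were centred on the midpoint of both arrays, so the level of a transcript in each line is not in the table. The rounding of the numbers leaves a class of mean level, high (log2 level of 8 or more, a signal of 256 or more), middle (4 to 8) or low. Measured probe sets are those in the high or middle class. The class is firmer where the rounding error of both values gave it (the sum) than where only the finest decimal step did (the step). Low signals vary widely: 57.7% of low-class probe sets differed by at least 2-fold, against 22.7% in the middle class and 11.6% in the high class. Different probe sets of one gene had a pooled SD of 0.62 in log2 ratio over 6902 genes, which measures error inside these arrays and not between cultures. The epithelial label was checked against 11 epithelial markers, of which 10 were measured, among them Krt8, Krt18 and Epcam. Markers of other cell types were measured as well: 7 of 10 endothelial markers, 7 of 9 leukocyte markers with a probe set and 8 of 10 fibroblast markers. A high-class probe set was found for 3 endothelial, 1 leukocyte and 5 fibroblast markers, of which the sum gave the class for 0, 0 and 2, beside 4 epithelial markers, 1 of them by the sum. Pecam1 (endothelial) and Ptprc (leukocyte) were read in the low class alone, and the part of other cell types in the results was not tested.

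The measured subunits, both classical inhibitors and Icam1 lay within 2-fold between the arrays, while the other 3 members were read lower in Mle29c. Members that NF-kB is known to induce were in both groups: Nfkbia, Tnfaip3 and Icam1 within 2-fold, and the 3 lower genes. Of the 9 measured genes, 3 were at least 2-fold lower in Mle29c, namely Vcam1, Ptgs2 and Birc3, while 7.18% of all measured genes were lower by that much. None was at least 2-fold higher, against 8.41% of all measured genes. The other 6, which include every measured subunit and both classical inhibitors, lay within 2-fold and within 1 SD between probe sets. The median over the 9 genes was -0.30, beside 0.00 over all measured genes, with 7 below 0 and 2 above. The 3 genes past 2-fold were also at least 4-fold lower, which held for 2.31% of all measured genes. The count rests on the middle class: over high-class probe sets alone Vcam1 was the 1 lower gene of 7, against 5.23% of all genes, and over classes given by the sum it was 1 of 5, against 6.04%.

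**Figure D1:**
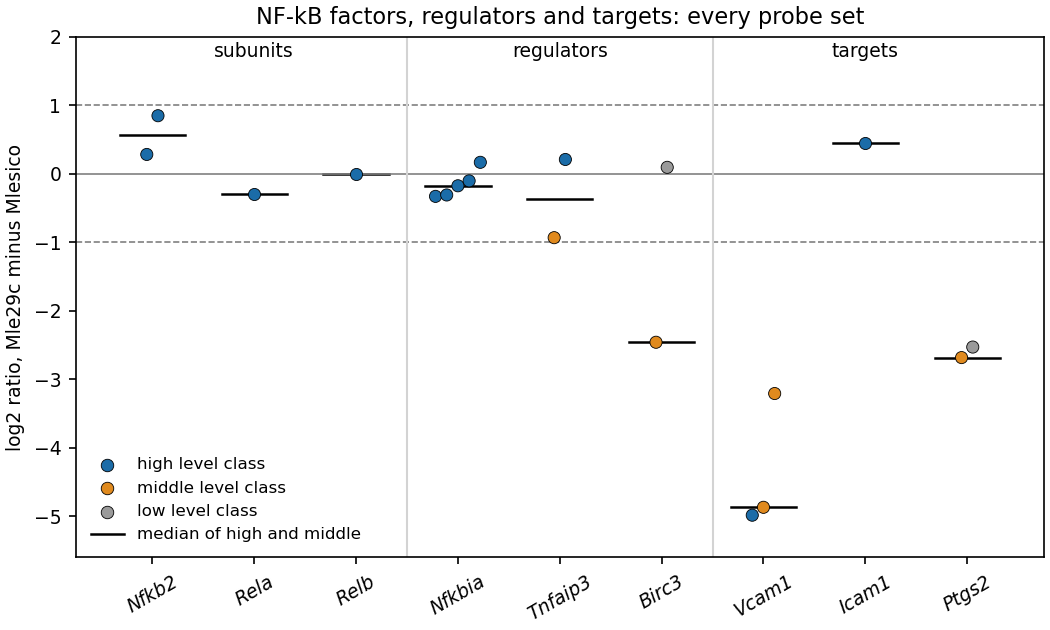
Log2 ratio (Mle29c minus Mlesico, vertical axis) of each of the 19 probe sets of the 9 genes, coloured by level class, with the gene value as a bar and dashed lines at 2-fold. All 3 probe sets of Vcam1 and both of Ptgs2 lie below the lower dashed line, whereas the 2 of Birc3 lie apart, at -2.46 and 0.09.

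Among the subunits, Rela encodes p65, which carries the transactivation domain of the most common dimer. Rela had a ratio of -0.30 from 1 probe set in the high class by the step. Relb, the subunit of the slower non-canonical pathway that pairs with the Nfkb2 product, stood at 0.00, with centred values of 0.002 in Mlesico and -0.002 in Mle29c and a high class given by the sum. Nfkb2 encodes the p100 precursor, which acts as an inhibitor until it is processed to p52, and it stood at 0.56. Its probe sets were at 0.85 and 0.28, both higher in Mle29c, and the second has an identifier that marks probes shared with other transcripts. The 3 subunits thus spanned 0.86 log2 units, and none differed by 2-fold. Rel, the fourth subunit measured on the array and mainly known from lymphocytes, stood at -0.95 in the middle class.

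The classical inhibitors, which NF-kB itself induces, lay close to the subunits. Nfkbia encodes IkB-alpha, which strips NF-kB from DNA and returns it to the cytoplasm. It had the most probe sets of the members, at -0.33, -0.31, -0.18, -0.10 and 0.17, all in the high class, with a median of -0.18. Of these, 4 were below 0 and 1 above, and their whole range was narrower than 1 SD between probe sets. Tnfaip3 encodes A20, a ubiquitin-editing enzyme that shuts off signalling upstream of the IkB kinase. Its 2 probe sets lay on opposite sides of 0, at 0.21 in the high class and -0.93 in the middle class, with a median of -0.36, so its direction depends on the probe set.

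Matches to kappaB motifs were searched in the RefSeq promoter windows of the members (GRCm38.p6, 250 bases before to 50 after each start, both strands), which were found for 7 of the 10 genes in 10 windows. The kappaB consensus matched in Nfkb2, Nfkbia and Tnfaip3 and in 8.46% of all 32851 windows. A related pattern, GGANNTTCC, which can overlap the consensus, was in 4.26% of windows and its form GGAAATTCC in 0.317%. The sites below are some of those in promoters of members within 2-fold, and the windows of Nfkb2, Nfkbia and Tnfaip3 hold further matches not printed. Each is printed on the strand of the gene. Capitals mark a single match per line, so a flank can hold part of another, as in the Tnfaip3 line.
Nfkb2, chr19:46305445-46305744, plus strand: gtattttcGGGACTTTCCtaagcagc
Nfkb2, chr19:46304487-46304786, plus strand: atcgtcacGGGAATTCCCcccctcgg
Nfkbia, chr12:55492598-55492897, minus strand: actggcttGGAAATTCCCcgcgcctg
Tnfaip3, chr10:19015361-19015660, minus strand: tttccatcGGAAATCCCCctgttggc
Icam1, chr9:21015690-21015989, plus strand: ttcagtttGGAAATTCCtagatcgc
The coordinates are those of the window. The first Nfkb2 site begins 10 bases after that window's start site, the second 39 bases before its own, the Nfkbia site 29 before, the Tnfaip3 site 12 before and the Icam1 match 153 before. The Icam1 match is to GGAAATTCC alone, without the consensus. Rela had no match to any of these patterns. A match is a description of the letters and not of binding.

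Birc3 encodes cIAP2, a ubiquitin ligase of the TNF receptor complex that restrains cell death and is itself a target of NF-kB. Its measured probe set, in the middle class by the step, had a ratio of -2.46, which is 5.50-fold lower in Mle29c. Of middle-class probe sets, 2.18% had a lower ratio. The other, in the low class, stood at 0.09. The probe sets of Birc3 thus did not share a size, and with both kept its value was -1.18. Birc2, its close relative and its next measured neighbour on chromosome 9, stood at 0.22 in the high class (named after its value was seen).

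Vcam1 had the largest difference among the members. It encodes an adhesion molecule that binds leukocyte integrins and is a standard NF-kB target in endothelium and in activated epithelium. Its centred values were 2.49, 2.43 and 1.60 in Mlesico and -2.49, -2.43 and -1.60 in Mle29c, so all 3 probe sets were higher in Mlesico. The ratios were -4.98, -4.87 and -3.21, and the median of -4.87 is 29.2-fold lower in Mle29c. Of 14827 measured genes, 37 had a ratio as low as this or lower, Vcam1 included. The probe set at -4.98 was in the high class by the sum, where 2.54% of probe sets were at least 2-fold lower. If the deposited logs are to base 2, its log2 level was at least 10.49 in Mlesico and at least 5.51 in Mle29c. Over all measured genes, 8.41% were at least 2-fold higher and 7.18% lower. Of the 10 endothelial markers, 7 were measured, with 1 higher by that much (Vwf, 1.40) and 1 lower (Tek, -1.57). The others, read in the low class alone, went both ways, with Pecam1 at -2.11, Emcn at -0.47 and Tie1 at 3.67. The levels of these markers in each line are not in the table, and their part in the Vcam1 difference was not tested.

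Icam1, the other adhesion target, encodes the ligand of leukocyte beta-2 integrins and is induced by the same cytokines as Vcam1. Icam1 stood at 0.45 from 1 probe set in the high class by the step. That is higher in Mle29c by 1.36-fold and within 1 SD between probe sets. The 3 targets therefore spanned 5.31 log2 units, from Vcam1 to Icam1, against 0.86 for the subunits.

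Ptgs2 encodes cyclooxygenase-2, the inducible enzyme that turns arachidonic acid into prostaglandin H. Its probe sets stood at -2.68 in the middle class by the step and -2.53 in the low class, both lower in Mle29c. The first gives the value of the gene, 6.42-fold lower, and 1.80% of middle-class probe sets had a lower ratio. The low class of the second means that its size rests on weak signals.

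**Figure D2:**
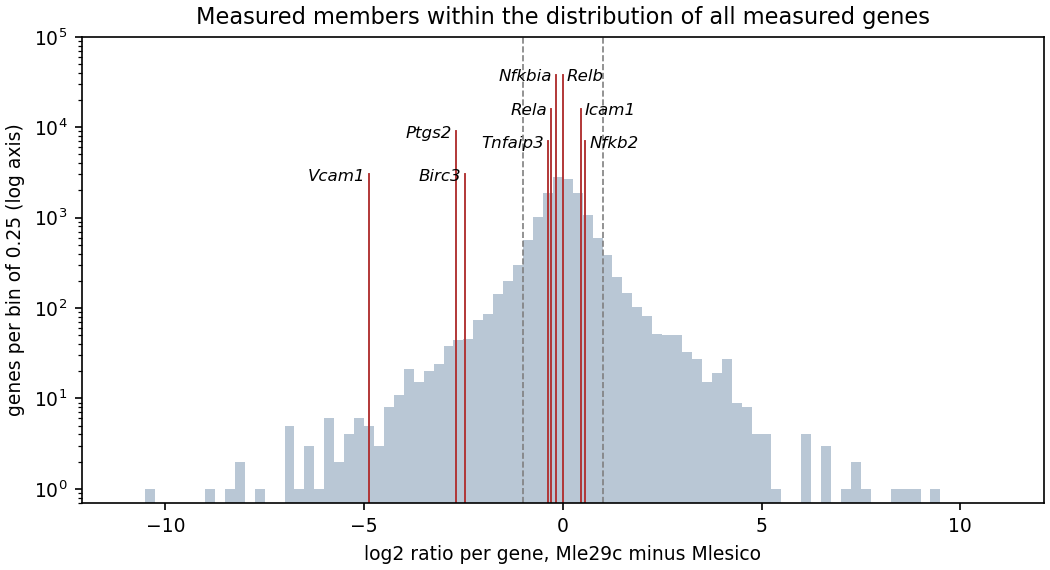
Histogram of log2 ratios of all 14827 measured genes (bins of 0.25, log count axis) with the 9 members as vertical lines and dashed lines at 2-fold. Vcam1, Ptgs2 and Birc3 lie in the lower tail, and the other 6 lie between -0.36 and 0.56.

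The promoter windows of Ptgs2 and Birc3, the members past 2-fold for which a sequence was found, are shown whole. Neither held the kappaB consensus, GGANNTTCC or GGAAATTCC in its 300 bases. This is no contrast with the windows of the printed sites, which were picked for a match. Rela and a Tnfaip3 window (chr10:19011914-19012213), members within 2-fold, had no match either, and the consensus was in 8.46% of all windows. Capitals mark ACGTCA, part of the cyclic AMP response element, found in 7.51% of all windows (both strands). The Ptgs2 element next to an E-box is well known from studies of this promoter. A kappaB site whose letters differ from the patterns, or one further upstream than the window reaches, would not be found by this search.
Ptgs2, chr1:150099781-150100080, plus strand: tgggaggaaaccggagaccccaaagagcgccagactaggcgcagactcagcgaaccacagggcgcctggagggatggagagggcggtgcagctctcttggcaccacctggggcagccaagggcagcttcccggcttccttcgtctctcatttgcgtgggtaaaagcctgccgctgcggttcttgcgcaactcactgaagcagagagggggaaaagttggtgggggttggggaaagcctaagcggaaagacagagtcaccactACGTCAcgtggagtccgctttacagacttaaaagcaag
Birc3, chr9:7873121-7873420, minus strand: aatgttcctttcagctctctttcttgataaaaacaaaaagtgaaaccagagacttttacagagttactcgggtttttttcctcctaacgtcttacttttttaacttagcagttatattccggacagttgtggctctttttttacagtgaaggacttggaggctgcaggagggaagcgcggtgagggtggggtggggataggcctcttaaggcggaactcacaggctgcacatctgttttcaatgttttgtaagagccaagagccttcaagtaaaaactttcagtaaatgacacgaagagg
Of these 2 windows that of Ptgs2 holds ACGTCA, beginning 12 bases after the start site, and that of Birc3 has no match to a pattern searched. ACGTCA is also in the Tnfaip3 window of the site printed above, on the other strand and 168 bases before its start site. A missing match says that these letters are not in this window and nothing of sites elsewhere.

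The wider pathway was described with 8 lists of genes, ordered by role, which hold 109 genes, 97 of them with a probe set and 85 measured. Without the members, 76 were measured, 7 were at least 2-fold lower (9.21%, near the 7.18% of all measured genes) and 1 was higher (1.32%, against 8.41%), and the median was -0.10. The lists of signalling components (subunits, IkB proteins and A20 partners, IkB kinases and adaptors) had 1 of 43 lower (2.33%) and none higher, with a median of -0.07. The other lists (adhesion, prostaglandin, cytokine and chemokine, and survival and acute phase), here called targets, had 6 of 33 lower (18.2%) and 1 higher. Their median was -0.21, and both shares stand beside 7.18% lower over all measured genes. The prostaglandin list was drawn up for prostaglandin synthesis, so 18.2% is not a share of NF-kB targets alone. It gives Pla2g4a and Hpgd among the 6 lower genes, and the higher gene, Ptgds. Over high-class probe sets the targets had 2 of 23 lower (8.70%) and the signalling genes 1 of 36 (2.78%), against 5.23% of all genes. With every probe set kept, the targets had 12 of 44 lower (27.3%) and 3 higher and the signalling genes 1 of 44 lower and 2 higher, against 10.9% of all genes lower.

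Of the IkB and A20 list, all 15 measured genes lay within 2-fold, from Nfkbie, which encodes IkB-epsilon, at -0.94 to Otulin, a deubiquitinase of linear chains, at 0.38. All 12 measured kinase genes lay within 2-fold, with 10 below 0, from Tab3 at -0.65 to Tab1 at 0.67, both adaptors of the TAK1 kinase. The adaptor list had 2 of 18 lower (11.1%, near the 7.18% of all measured genes) and none higher (against 8.41%). The 2 were Birc3 and Traf5, an adaptor of TNF receptor family members. Traf5 stood at -2.04, but its probe sets were at -3.38 and -0.71. This list had a median of 0.01.

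The prostaglandin list had 3 of 7 measured genes lower, the member Ptgs2 among them, and 1 higher. Over all measured genes the shares were 7.18% lower and 8.41% higher. Pla2g4a encodes the cytosolic phospholipase A2 that releases arachidonic acid, the substrate of cyclooxygenase, and stood at -8.08 from 1 middle-class probe set. If that class is right, its level in Mle29c lay below 4, so the size is not firm. Hpgd, which encodes the enzyme that inactivates prostaglandins, stood at -1.28 from its high-class probe set, and adding its low-class one gives -0.09. Ptges, a prostaglandin E synthase, stood at -0.99, with measured probe sets at -1.38 and -0.59 (named after its value was seen). Ptgds, a prostaglandin D synthase, was higher in Mle29c, at 1.81, with probe sets at 1.48 and 2.15.

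Of 19 cytokine and chemokine targets, 12 were measured and 7 were read only in the low class, among them Tnf and Ccl2. Of the 12, 4 were lower (33.3%) and none higher, with a median of -0.63 and 9 below 0. Beside that share, 7.18% of all measured genes and 11.5% of middle-class probe sets were lower. The epithelial chemokine gene Ccl20 stood at -2.41 in the high class by the step. Ccl5 stood at -1.53, Cxcl10 at -1.28 and Il6 at -1.25, all in the middle class (the last pair named after their values were seen). The adhesion list without the members lay within 2-fold, from Madcam1 at -0.91 to Cd44, the hyaluronan receptor, at 0.29. All 12 measured genes of the survival and acute phase list lay within 2-fold, from the peptide transporter gene Tap1 at -0.46 to the early response gene Ier3 at 0.98, with a median of -0.12.

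**Figure D3:**
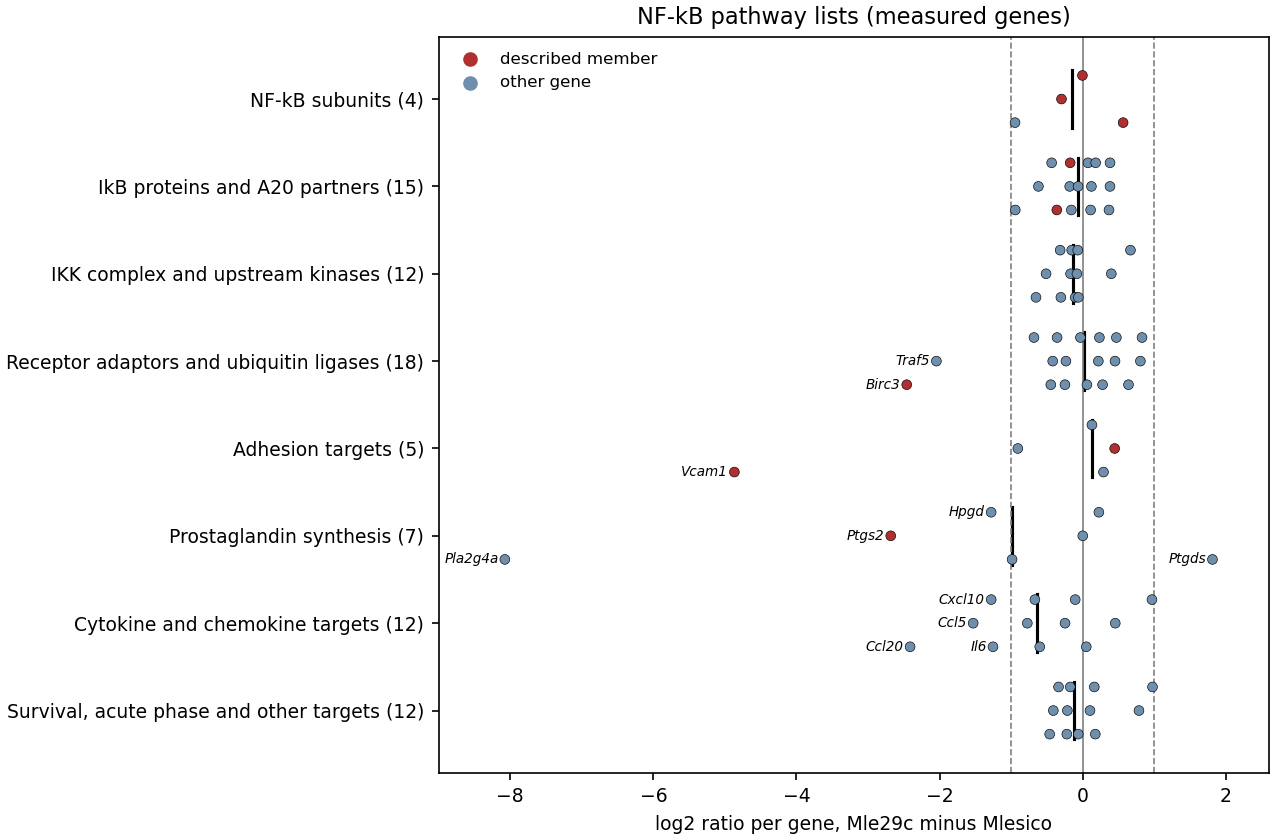
Log2 ratio of each measured gene of the 8 pathway lists (number measured in brackets), with the list median as a bar, the members in red and dashed lines at 2-fold; vertical spread within a list only separates points. The first 3 lists lie wholly within 2-fold, and the genes past it lie among the adaptors, adhesion, prostaglandin and cytokine lists.

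Cell type markers past 2-fold lay in both directions, while 7.18% of all measured genes were at least 2-fold lower and 8.41% higher. In lists this short, 1 gene past 2-fold is no result about the markers. Of 10 measured epithelial markers, 1 was higher (Cdh1, 1.46) and 1 lower (Krt7, -1.20), with a median of -0.08. Of 7 measured leukocyte markers, 1 was higher (Laptm5, 1.02) and none lower. Of 8 measured fibroblast markers, 1 was higher (Col3a1, 1.55) and 1 lower (Col1a1, -3.41). Their part in the member differences was not tested.

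Ratios differed between chromosomes, with a median of 0.27 for the measured genes of chromosome 19 and -0.08 for those of chromosome 3. Each member was therefore set beside the 40 nearest measured genes on its chromosome, 20 on each side. Beside the counts below, 7.18% of all measured genes were at least 2-fold lower and 8.41% higher. The neighbours of Vcam1 on chromosome 3 had a median of -0.13, with 1 at least 2-fold lower and 2 higher. Those of Birc3 on chromosome 9 had a median of -0.19, with 5 lower and 2 higher. Those of Ptgs2 on chromosome 1 had a median of -0.35, with 8 lower and 3 higher, and the next measured gene to Ptgs2 was Pla2g4a. Nfkb2 was the member whose neighbours differed most from 0: their median on chromosome 19 was 0.85, with 14 of 40 at least 2-fold higher and none lower. Relative to its neighbours Nfkb2 stood at -0.28. Rela lies on the same chromosome, but its neighbours had a median of -0.23, close to its own ratio. The 3 members past 2-fold were past it after the neighbours' median was subtracted.

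**Figure D4:**
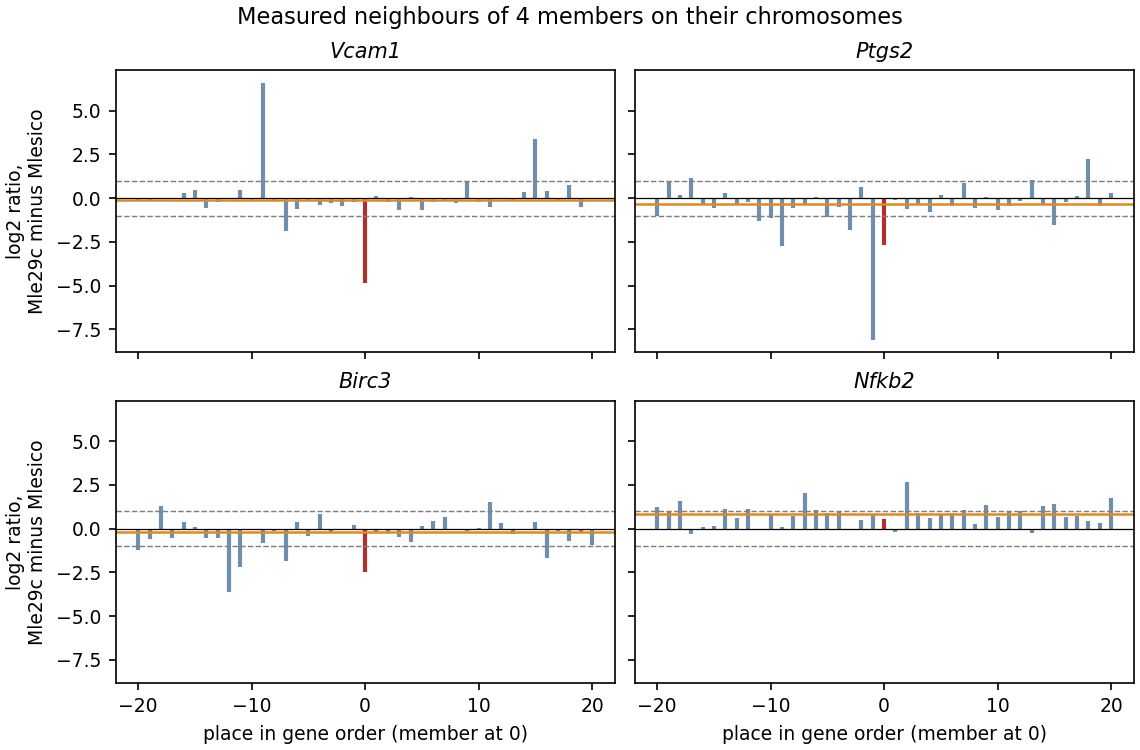
Log2 ratio of the 20 measured genes on each side of Vcam1, Ptgs2, Birc3 and Nfkb2 by gene order (member in red at place 0, orange line at the neighbours' median, dashed lines at 2-fold). Nfkb2 lies below its neighbours' median of 0.85, and Ptgs2 stands beside Pla2g4a at -8.08.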

How the data were processed

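Total RNA of both lines was labelled with biotin and hybridised, 1 array per line, per the labels. MAS5, which summarises the probes of a probe set, is named in the submitters' processing notes, with no version. The deposited values are taken as log2 (the base is not stated; with natural logs every fold would be larger) and sum to 0 per probe set within 1e-06, so the authors centred each probe set. No sample column was left unused.

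Values were read in single precision with Python 3.11.15, numpy 2.4.6 and pandas 2.3.3, plotted with matplotlib 3.10.9. A level class was read from the rounding error in the sum of the paired values, or else from their finest step, and was tested on simulated data. MAS5 detection calls were not used here. Genes were named from the 2016 platform annotation, updated by gene number (34741 of 34945 probe sets matched). With 1 array per line no test was possible, and genes were called by size at 2-fold. All members were named, and from each list up to 2 genes per side past 2-fold, otherwise its highest and lowest. The members and lists were chosen with earlier results of these data known. Alternatives were other probe sets, the mean, other folds and centring on chromosomes or neighbours.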

Additional observations from a re-analysis of the deposited data

How the results depend on the processing

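Of the 57 member values recomputed under alternatives, 55 moved by less than the SD between probe sets and none past 2-fold changed sign. Those that moved further, as given above, were Birc3 with every probe set kept and Nfkb2 relative to its neighbours, an alternative chosen after seeing the data. The 55 overstate stability. Rela, Relb and Icam1 have 1 probe set, and Birc3 and Ptgs2 have 1 measured. Several alternatives therefore return the same value for them by construction, and members missing from a setting were not counted. The count of 3 lower and 0 higher members was the same with every probe set, without shared probe sets, with the mean, with either centring and at 1.5-fold or 4-fold. With probe sets limited to the high class, or to classes given by the sum, it was 1 lower member (Vcam1), with 7 and 5 members left, and the member median was -0.004 in both; fewer genes enter by construction, since Birc3 and Ptgs2 have no probe set there. Pathway genes lower and higher numbered 10 and 1 (all genes: 7.18% lower, 8.41% higher), and 16 and 5 with every probe set kept (10.9% and 12.4%). Over high-class probe sets they numbered 4 and 1 (5.23% and 6.41%), and the 4 of 66 pathway genes are 6.06%, near that share. Over classes given by the sum they numbered 5 and 2 (6.04% and 6.89%). At 4-fold they numbered 6 and 0, beside 2.31% of all genes lower, and at 1.5-fold 20 and 8. The shares of all genes at 1.5-fold, and of those higher at 4-fold, were not computed, so these counts have no comparison. The cause was not tested beyond the probe sets or threshold used. No paired analysis was possible because each line has 1 array. The values of Birc3, Ptgs2 and Pla2g4a each rest on 1 middle-class probe set, so low signal limits them. For Birc3 and Ptgs2 that class came from the step, the less firm source.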
